A study of Mus musculus with 10 samples.

Results

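Mitochondrial chaperones fold proteins that enter the organelle, and mitochondrial proteases remove those that fail to fold. The 9 genes described here are Hspe1, Hspd1, Hspa9, Trap1, Clpp, Clpx, Lonp1, Grpel1 and Dnaja3, of 18193 genes that a single gene name of the array platform covers. They form a known functional group that was selected on the measured rise of Hspe1 on 1 probe set in the comparison of NPAS2 mutant with wild type. Every probe set carrying the name of a listed gene was included, which gave 19 of 45101. Transcript levels were measured on Affymetrix MOE 430V2 arrays in the aorta of male mice, with 5 arrays of wild type (C57Bl/6) and 5 of the NPAS2 mutant on a C57Bl/6J background. NPAS2 is a transcription factor of the circadian clock, and the nature of its mutation is not given in the sources used here. Mice of both groups lived in a cycle of 12 h light and 12 h dark for 2 weeks or more, and were then held in constant darkness for 30 h or more before sampling at zeitgeber time 14 h. Their age is not given in the sources used here. The labels call the tissue thoracic aorta, and elsewhere a piece running from the arch to beyond the femoral branching. Whether the arrays of a group come from different mice is not said, so p values measure only the spread between these arrays, which may be technical.

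Hspd1 (the chaperonin, also called Hsp60) and Hspe1 (its lid, the co-chaperonin Hsp10) form the folding chamber of the matrix. Hspa9 (mortalin) is the matrix Hsp70, which pulls proteins through the import channel and folds them, with Dnaja3 as a J-domain partner, Grpel1 as nucleotide exchange factor and Trap1 as the Hsp90 of the organelle. Clpp is a protease fed by the unfoldase Clpx, and Lonp1 is a separate protease that combines both activities. Several of these genes are known targets of the mitochondrial unfolded protein response, and mitochondria are abundant in brown fat, which lies along the thoracic aorta of the mouse.

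Hspd1 and Hspe1 are neighbours that are read in opposite directions from a shared promoter, which is shown because they encode 2 parts of a single chamber and can be compared over the same DNA. In RefSeq (GRCm38.p6) 8 of the 9 genes, all but Hspa9, had a promoter window, with 9 windows in all because Hspd1 has 2 listed starts. The Hspe1 start lay between those of Hspd1, with 215 bases separating it from the lower one and the higher one 95 bases further on. The sequence between the lower Hspd1 start and the Hspe1 start is given on the plus strand, which is the strand of Hspe1, with 70.2% G or C. Capitals mark matches to the heat shock element TTCNNGAANNTTC and to TGCAAT, a core sequence of sites for C/EBP factors such as Chop.
Hspd1-Hspe1 region, chr1:55087933-55088147: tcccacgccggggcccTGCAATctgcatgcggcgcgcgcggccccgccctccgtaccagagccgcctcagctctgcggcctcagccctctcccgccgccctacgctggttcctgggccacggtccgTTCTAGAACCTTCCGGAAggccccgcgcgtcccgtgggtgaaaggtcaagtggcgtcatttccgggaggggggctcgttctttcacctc

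Letters were searched on both strands in the 250 bases before each start. The heat shock element matched on both strands, at bases 127 to 139 and 132 to 144 of the printed region. It occurred in 0.47% of the 32536 distinct windows of all genes. TGCAAT stood at bases 17 to 22 and occurred in 7.27% of windows. The ETS core CCGGAA had 3 matches in the region, some sharing all 6 bases with the heat shock element, and was found in 12.1% of windows. The E-box CACGTG, the letters that NPAS2 and its partner bind, was in 6.04% of windows and matched 2 of the 9 windows of these genes. They were those of the higher Hspd1 start (position -80) and of Lonp1 (position -36). The Hspd1 match lies past the Hspe1 start, in the direction Hspe1 is read, and so outside the bases searched for Hspe1. The stretches are shown on the strand of each gene with the E-box in capitals.
Hspd1, chr1:55088306-55088335: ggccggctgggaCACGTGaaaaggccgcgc
Lonp1, chr17:56626922-56626951: cgcgagcgtcatCACGTGcgcaaacggggg
TGACGT, a core of cyclic AMP response elements, matched in Trap1 and Lonp1 (6.5% of windows), and the NRF-1 core GCGCNNGCGC in Hspe1, Hspd1 and Dnaja3 (5.02%). No binding was measured, and a match describes letters only.

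Hspe1 was higher in all 5 mutant arrays than in any wild-type array on probe set 1450668_s_at. Its log2 levels in wild type were 9.48, 9.46, 9.34, 9.57 and 9.49 (arrays F11, F14_2, F15, F16 and F17), and in the mutant 9.79, 9.82, 9.9, 9.87 and 9.86 (F12, F13, F18, F19 and F20). The groups were separated by 0.22, and the mutant arrays spread less among themselves than the wild-type ones. The means were 9.47 ± 0.08 and 9.85 ± 0.04 (SD, n = 5 each), a log2 change of 0.38 ± 0.06 (SE) or 1.3-fold, with a 95% interval from 0.25 to 0.5. The limma p, adjusted over the whole table, was 0.0306. This is the value for which the gene was picked, so it is a description and supports nothing further. Of all 22340 tested probe sets 0.215% passed the same threshold of 0.05, and 0.094% passed it with a higher mutant mean. The Hspe1 probe set ranked 25 by p. The last probe set inside the threshold, which has no gene name, had an adjusted p of 0.049, and the first outside, Adtrp, one of 0.0533. The call did not survive leaving out any array: the adjusted p lay between 0.0518 and 0.0751 in these 10 fits, while the change stayed between 0.35 and 0.4.

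The other Hspe1 probe set, 1422579_at, gave a smaller difference. Its levels were 7.21, 7.34, 7.44, 7.43 and 7.43 in wild type and 7.46, 7.44, 7.5, 7.44 and 7.56 in the mutant, in the same array order. The groups did not overlap, but only 0.0018 lay between the lowest mutant and the highest wild-type array. The change was 0.11 ± 0.06 (SE, adjusted p = 0.405), with a 95% interval from -0.02 to 0.24. The signal of 1450668_s_at exceeded that of 1422579_at by 2.1 ± 0.13 in wild type and by 2.37 ± 0.05 in the mutant (SD, n = 5 each), which restates the rise the genes were selected on. With group means removed, the 2 probe sets were uncorrelated over the 10 arrays (Pearson r = 0.01). The suffix _s_at marks probes shared with other transcripts, so what else the probe set reads was not tested.

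Hspd1, the partner of Hspe1 in the chamber, has a single probe set here, 1426351_at. Its levels were 9.76, 10.09, 9.78, 9.93 and 10.04 in wild type and 10.15, 10.29, 10.04, 9.91 and 10.17 in the mutant. The groups overlapped, with 3 mutant arrays above every wild-type array. The change was 0.19 ± 0.09 (SE, adjusted p = 0.338), with an interval from -0.01 to 0.39. Over the shared promoter, then, 0.38 and 0.11 were measured on the Hspe1 side and 0.19 on the Hspd1 side, with intervals that overlap for Hspd1 and each Hspe1 probe set. The intervals of the 2 Hspe1 probe sets, 0.25 to 0.5 and -0.02 to 0.24, did not overlap each other.

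**Figure D1:**
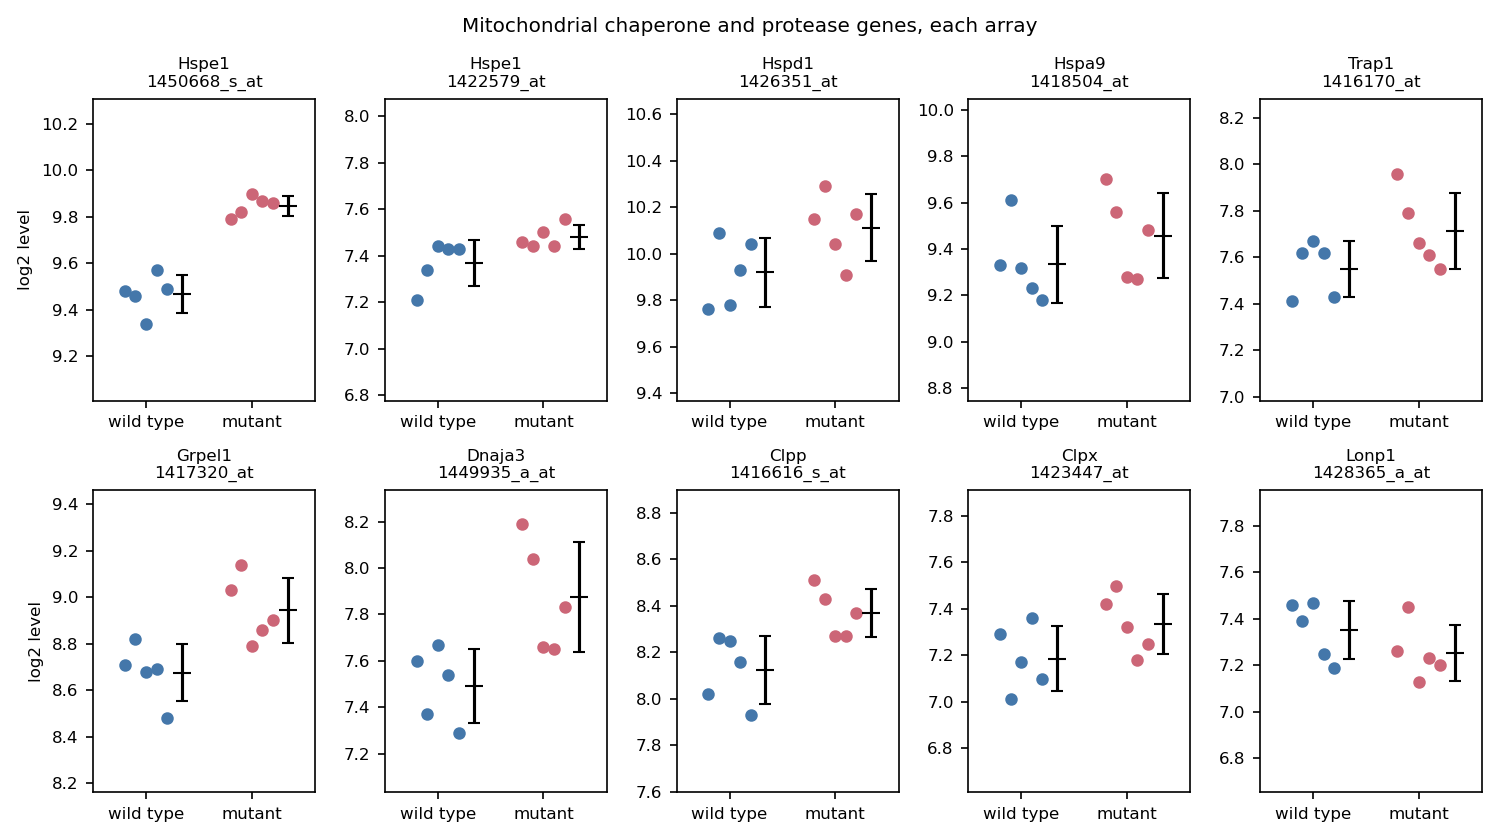
Log2 level (vertical axis, the same height of 1.3 log2 units in every panel) of 10 probe sets in 5 wild-type (blue) and 5 NPAS2 mutant (red) arrays, with the group mean and SD beside the points. Hspe1 1450668_s_at separates the groups widely (9.34 to 9.57 against 9.79 to 9.9), while Lonp1 has a lower mean in the mutant.

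Of the Hsp70 system, Grpel1 and Dnaja3 had larger measured changes than Hspa9 itself, though none of them was called. On their brightest probe sets the 95% intervals overlapped (0.09 to 0.45, 0.12 to 0.64 and -0.11 to 0.36, in that order). Grpel1 (1417320_at) stood at 8.71, 8.82, 8.68, 8.69 and 8.48 in wild type and at 9.03, 9.14, 8.79, 8.86 and 8.9 in the mutant. Of the mutant arrays 4 were above all wild-type arrays, and F12 and F13 were highest. The change was 0.27 ± 0.08 (SE, adjusted p = 0.182).

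Dnaja3 (1449935_a_at) had levels of 7.6, 7.37, 7.67, 7.54 and 7.29 in wild type and of 8.19, 8.04, 7.66, 7.65 and 7.83 in the mutant. Here too F12 and F13 were the 2 highest arrays and the groups overlapped. The change was 0.38 ± 0.12 (SE, adjusted p = 0.184), as large as that of Hspe1 but with a wider standard error. Its second tested probe set, 1420629_a_at, had a change of 0.34 ± 0.12 (adjusted p = 0.213), and the 2 went together over arrays (r = 0.78). The remaining one, 1432066_at, was too dim to test, at 2.88 ± 0.03 and 2.9 ± 0.02.

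Hspa9 had 5 probe sets. The brightest, 1418504_at, read 9.33, 9.61, 9.32, 9.23 and 9.18 in wild type and 9.7, 9.56, 9.28, 9.27 and 9.48 in the mutant, so that the groups overlapped widely. Its change was 0.12 ± 0.11 (SE, adjusted p = 0.579). The next, 1418503_at, had a change of 0.16 ± 0.08 and 1431274_a_at one of 0.1 ± 0.2. The dimmest tested one, 1447728_x_at, at 4.85 ± 0.07 and 5.03 ± 0.09, had a change of 0.18 ± 0.06 (adjusted p = 0.203). The probe set 1453811_at, at 2.43 ± 0.02 and 2.45 ± 0.01, was too dim to test.

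Trap1, the organelle's Hsp90, had levels on 1416170_at of 7.41, 7.62, 7.67, 7.62 and 7.43 in wild type and of 7.96, 7.79, 7.66, 7.61 and 7.55 in the mutant. Only F12 and F13 exceeded all wild-type arrays, and the change was 0.16 ± 0.09 (SE, adjusted p = 0.395). Its dimmer probe set 1437379_x_at had a change of -0.01 ± 0.1, whose sign turned in 6 of 21 alternatives: quantile normalisation, array weights, and without F14_2, F15, F12, or both F12 and F13.

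None of the protease genes passed the test. Clpp (1416616_s_at) had levels of 8.02, 8.26, 8.25, 8.16 and 7.93 in wild type and of 8.51, 8.43, 8.27, 8.27 and 8.37 in the mutant. The groups did not overlap, though the lowest mutant and the highest wild-type arrays lay close (8.27 and 8.26). The change was 0.24 ± 0.08 (SE, adjusted p = 0.203), and on 1416615_at it was 0.14 ± 0.11 (adjusted p = 0.522). Clpx, which feeds Clpp, had levels on 1423447_at of 7.29, 7.01, 7.17, 7.36 and 7.1 in wild type and of 7.42, 7.5, 7.32, 7.18 and 7.25 in the mutant. The groups overlapped, with a change of 0.14 ± 0.09 (adjusted p = 0.43), and the dimmer 1439342_at had one of -0.04 ± 0.09 whose sign turned in 3 of 22 alternatives (quantile normalisation, the brown fat covariate and leaving out F16).

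Lonp1 was the 1 gene of the 9 with a lower mean in the mutant on its brightest probe set. The levels on 1428365_a_at were 7.46, 7.39, 7.47, 7.25 and 7.19 in wild type and 7.26, 7.45, 7.13, 7.23 and 7.2 in the mutant. Only F13 was above the wild-type mean of 7.35. The change was -0.1 ± 0.08 (SE, adjusted p = 0.551), with a 95% interval from -0.27 to 0.08.

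In all, 17 of the 19 probe sets were tested, and each of the 17 was above the median of its own array on all 10 arrays, so none passed that filter through a single group. The mutant mean was the higher one for 14 of these and the lower one for 3, where 42.4% of all tested probe sets had a change above 0. The 1 called probe set is 5.88% of the 17, beside 0.215% of all tested (0.094% in the upward direction). At an unadjusted limma p under 0.05 there were 6, or 35.3%, all higher in the mutant, beside 15.3% of all tested (4.75% upward). On 3 of the 17, or 17.6%, the groups did not overlap, with the mutant above, beside 4.01% of all tested (1.5% with the mutant above). With 1 probe set per gene the median change was 0.19, beside -0.028 over all tested probe sets, and 8 of 9 genes had a higher mean. The genes were grouped around a member called in this comparison, so nothing is read from these shares. The adjusted p of the other 16 probe sets ran from 0.182 to 0.973.

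Markers of brown fat and of the respiratory chain also stood higher in the mutant. The mean over 12 tested brown fat markers lay between 7.87 and 8.36 on wild-type arrays and between 8.57 and 9.05 on mutant arrays, without overlap. Of those markers 10 had a higher mean in the mutant, 7 of them at an unadjusted p under 0.05 and 0 called by limma, and Zic1 was too dim to test. Of all tested probe sets 42.4% had a change above 0, and 4.75% reached that unadjusted p with a higher mutant mean. The largest change was that of Elovl3, a fatty acid elongase (2.57 ± 0.58 SE, adjusted p = 0.111). The thermogenic uncoupling protein gene Ucp1 stood at 11.42 ± 0.52 and 12.42 ± 0.29 (SD, n = 5 each), so this defining marker was far from background in both groups. The mean over 26 oxidative phosphorylation genes ran from 10.73 to 11.21 in wild type and from 10.93 to 11.38 in the mutant, so the groups overlapped. Mutant arrays F12 and F13 had the highest values of both means, and on 10 of the 15 tested probe sets of the members other than Hspe1 the highest array was F12 or F13. In a bulk sample of this kind more cells of a type and more RNA per cell cannot be told apart, and the part of either in the values of the members was not tested beyond the fits given here.

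The members also differed in how they varied over arrays. With group means removed, Grpel1 followed the brown fat mean (r = 0.9, and 0.76 without the 2 arrays farthest from its median), as did Dnaja3 1449935_a_at (0.83 and 0.81), Clpp 1416616_s_at (0.81 and 0.62) and Hspa9 1418504_at (0.8 and 0.78). Hspa9 1418504_at followed the oxidative phosphorylation mean most closely of all tested probe sets of the members (r = 0.98). Lonp1, despite its lower mutant mean, also had a positive r with the brown fat mean within groups (0.78, and 0.57 without the 2 farthest arrays, F17 and F18). The r of Hspd1 was 0.07, and 0.37 without those arrays. Both Hspe1 probe sets had a negative r, -0.52 for 1450668_s_at (-0.54 without those arrays) and -0.43 for 1422579_at (-0.31). These correlations rest on 10 arrays that share a normalisation, and are descriptions without a test.

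**Figure D2:**
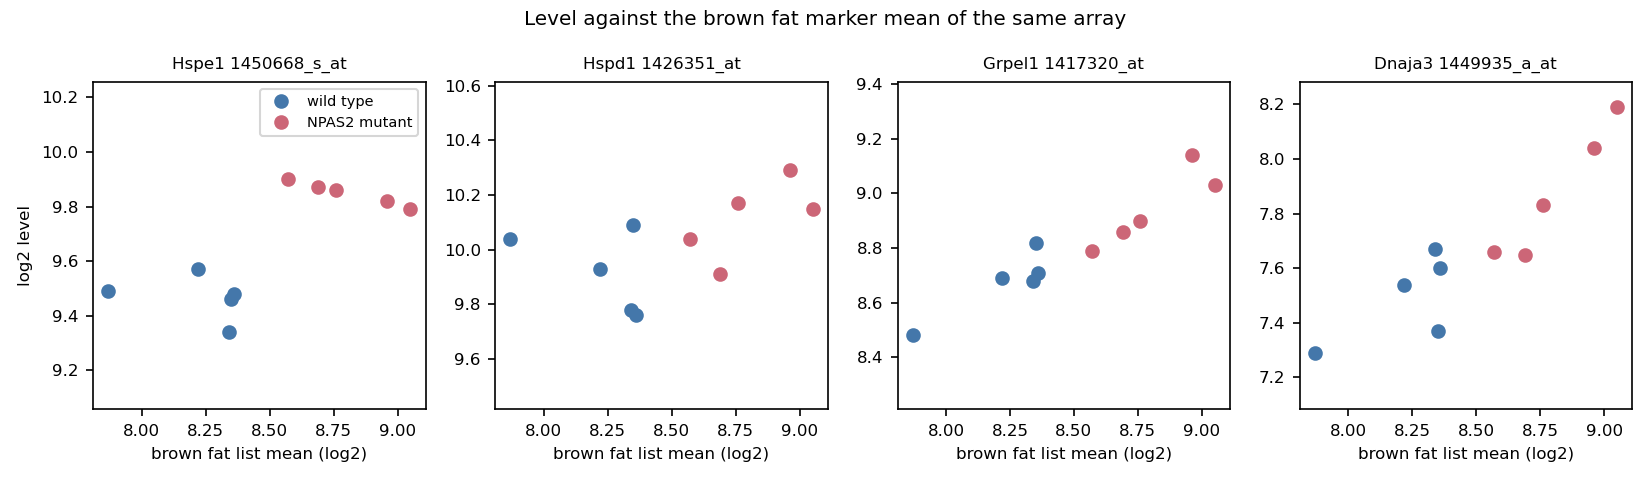
Log2 level (vertical axis) of Hspe1, Hspd1, Grpel1 and Dnaja3 against the mean log2 level of 12 brown fat markers on the same array (horizontal axis), for 5 wild-type (blue) and 5 NPAS2 mutant (red) arrays. Grpel1 and Dnaja3 climb along the axis across both groups, whereas Hspe1 sits at 2 separate heights, 9.34 to 9.57 and 9.79 to 9.9.

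Between genes, the 28 pairs that leave out Hspe1 had a median r of 0.53 and the 8 pairs with Hspe1 one of -0.48. The closest pairs were Hspa9 with Grpel1, the chaperone and its exchange factor (0.83), and Trap1 with Clpp (0.82). Hspe1 with Hspd1 stood at 0.02, and Clpp with its unfoldase Clpx at 0.18. Hspe1 entered all its pairs with 1450668_s_at alone. That probe set was uncorrelated with 1422579_at (r = 0.01), so these values describe the probe set and may not hold for the gene. Hspe1 varied little within groups (SD 0.08 and 0.04), so its correlations rest on small differences.

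**Figure D3:**
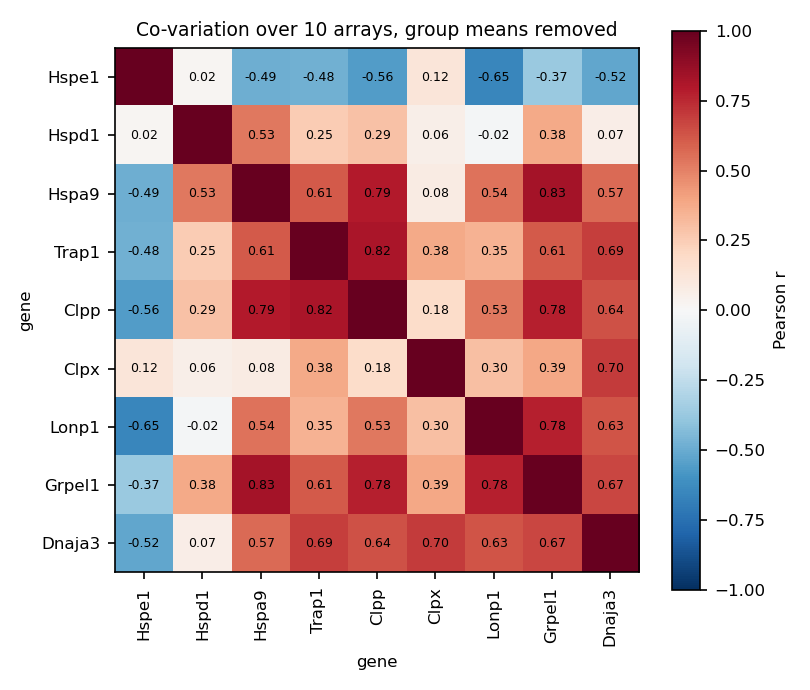
Pearson r between the 9 genes over 10 arrays after removing each group's mean, with the brightest probe set per gene; red is positive and blue negative. Hspe1 is mostly blue (-0.65 to 0.12), and the block of Hspa9, Trap1, Clpp, Lonp1, Grpel1 and Dnaja3 is red.

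With the oxidative phosphorylation mean as a covariate, the change of Hspe1 1450668_s_at was 0.41 ± 0.06 (SE, limma adjusted p = 0.0802), and with the brown fat mean 0.47 ± 0.1 (adjusted p = 0.336). Hspd1 had 0.12 ± 0.1 and 0.16 ± 0.18 in these fits (adjusted p = 0.729 and 0.837). Grpel1 had 0.13 ± 0.06 and -0.07 ± 0.1, Dnaja3 (1449935_a_at) 0.23 ± 0.12 and -0.1 ± 0.15, and Clpp (1416616_s_at) 0.13 ± 0.07 and -0.05 ± 0.11. Hspa9 1418504_at had -0.07 ± 0.06 and -0.28 ± 0.14, and Hspa9 1431274_a_at -0.26 ± 0.11 and -0.55 ± 0.3. Its other tested probe sets had 0.05 ± 0.07 and -0.09 ± 0.12 (1418503_at), and 0.13 ± 0.07 and 0.14 ± 0.12 (1447728_x_at). Lonp1 went further down, to -0.19 ± 0.08 and -0.37 ± 0.12. In the brown fat fit 5 of the 17 had a change above 0, among them both of Hspe1 and that of Hspd1. Of the 17, 0 were called by limma, beside 1 of all tested probe sets. An unadjusted limma p under 0.05 was reached by 2, Hspe1 1450668_s_at, which was higher, and Lonp1, which was lower. The share of all tested probe sets at that p was not counted for this fit. The brown fat mean does not overlap between the groups, so the covariate and the genotype can hardly be separated in this fit, and its standard errors are wider. Without mutant arrays F12 and F13, an alternative chosen after seeing the data, the changes were 0.4 for Hspe1 1450668_s_at, 0.12 for Hspd1, 0.17 for Grpel1, 0.22 for Dnaja3 1449935_a_at and 0.01 for Hspa9 1418504_at.

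**Figure D4:**
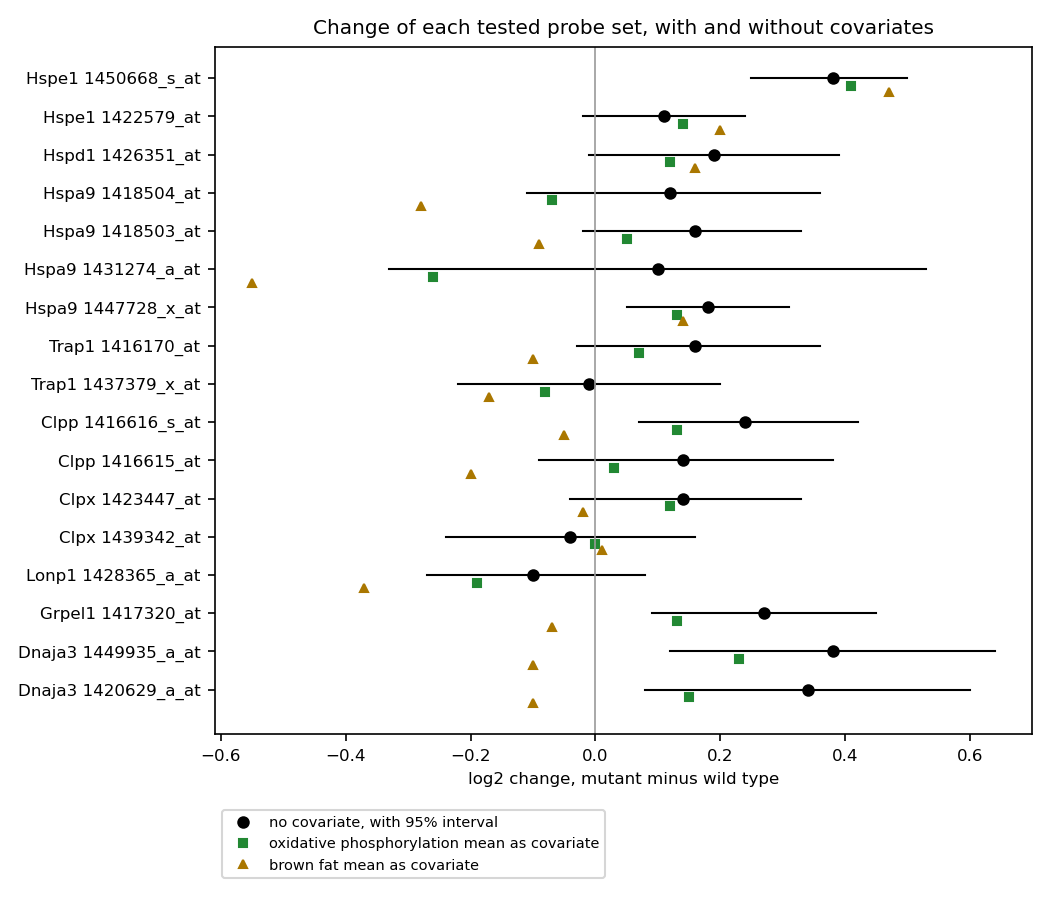
Log2 change, mutant minus wild type (horizontal axis), of the 17 tested probe sets without a covariate (black, with the 95% interval), with the oxidative phosphorylation mean (green squares) and with the brown fat mean (brown triangles) as covariate. Both Hspe1 probe sets move to the right with the covariates (0.38 to 0.47 on 1450668_s_at), whereas Grpel1, Dnaja3, Clpp and Trap1 1416170_at move to the left.

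Other chaperones, proteases and import genes of mitochondria, and 4 related lists (respiratory chain, mitochondrial content, stress response regulators and cytosolic chaperonin), were compared, 7 lists in all, none of which had a called member by limma, by a one-way analysis or with a trended, robust variance model. Of the other mitochondrial chaperones 10 of 12 tested had a higher mean, with a median change of 0.19 and 4 at an unadjusted p under 0.05. Beside the counts of this and the following lists, 42.4% of all tested probe sets had a change above 0. An unadjusted limma p under 0.05 was reached by 4.75% of all tested with a higher mutant mean and by 15.3% in either direction. Dnajc15, a J-domain protein of the import motor, had a change of 0.33 ± 0.12 (SE, adjusted p = 0.236), and Chchd4, which folds proteins in the intermembrane space, one of 0.31 ± 0.13. Of 19 import translocase genes 18 had a higher mean, with a median of 0.18 and 8 at an unadjusted p under 0.05. Among them were Timm8a1 (0.38 ± 0.12, adjusted p = 0.186) and Timm23, the channel of the inner membrane (0.35 ± 0.13, adjusted p = 0.233). The 15 tested probe sets of members other than Hspe1 had a median r of 0.79 with the import mean over arrays. It was 0.67 without the 2 farthest arrays, F12 and F13. Of the 15, 14 had an r above 0 and 10 one above 0.5. Hspd1 stood at 0.38 (0.14 without those arrays) and Clpx 1439342_at at -0.39. The r of Hspe1 with the import mean was -0.68 on 1450668_s_at (-0.69 without those arrays) and -0.22 on 1422579_at (-0.1).

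Other proteases were closer to the whole array. Of 16 tested genes 12 had a higher mean, with a median change of 0.03 and 1 at an unadjusted p under 0.05. That was Immp1l, a peptidase of the inner membrane (0.26 ± 0.09, adjusted p = 0.219), while Htra2, a serine protease of the intermembrane space, had a change of -0.18 ± 0.11. Oxidative phosphorylation genes had a median change of 0.22, with 25 of 26 higher and 11 of these at an unadjusted p under 0.05. Cycs, cytochrome c, had a change of 0.44 ± 0.12 (adjusted p = 0.14) and Sdhd, a subunit of complex II, one of 0.41 ± 0.16. The 1 gene that was lower was Cox7c, a subunit of complex IV named here after its value was seen (-0.41 ± 0.15, adjusted p = 0.245). Its probe set was dim, with means of 4.14 in wild type and 3.72 in the mutant. The 11 higher genes at an unadjusted p under 0.05 had wild-type means of 9.15 or more. Whether this dim signal reads the Cox7c transcript was not tested. Genes of mitochondrial content and its control had a median of 0.09, with 11 of 16 higher and 3 at an unadjusted p under 0.05. Ppargc1b, a coactivator of mitochondrial biogenesis, had a change of 0.43 ± 0.21 and the respiratory factor gene Nrf1 one of -0.35 ± 0.19. The Nrf1 probe set was dim, at 4.34 ± 0.45 in wild type and 3.99 ± 0.17 in the mutant (SD).

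Regulators of the mitochondrial unfolded protein response went both ways, 5 of 9 higher with a median of 0.05. Cebpb, a transcription factor that pairs with Chop, had a change of 0.65 ± 0.15 (SE, adjusted p = 0.114) and Jun, a subunit of AP-1, one of -0.6 ± 0.26 (adjusted p = 0.303). The cytosolic chaperonin CCT, the counterpart of Hspd1 outside the organelle, had a median of 0.04 over 8 subunits, 5 of them higher. Cct3 had a change of 0.16 ± 0.07 and Cct7 one of -0.11 ± 0.06. Its mean lay between 9.61 and 9.73 in wild type and between 9.57 and 9.75 in the mutant. Within groups Hspe1 1450668_s_at went with the CCT mean (r = 0.6), and 1422579_at less closely (0.46). Of the 15 tested probe sets of the other members, 1 had an r above 0 with this mean. Their median r was -0.7 (-0.56 without the 2 farthest arrays), with Grpel1 at -0.82. The CCT mean varied little over arrays, so these r rest on small differences.

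**Figure D5:**
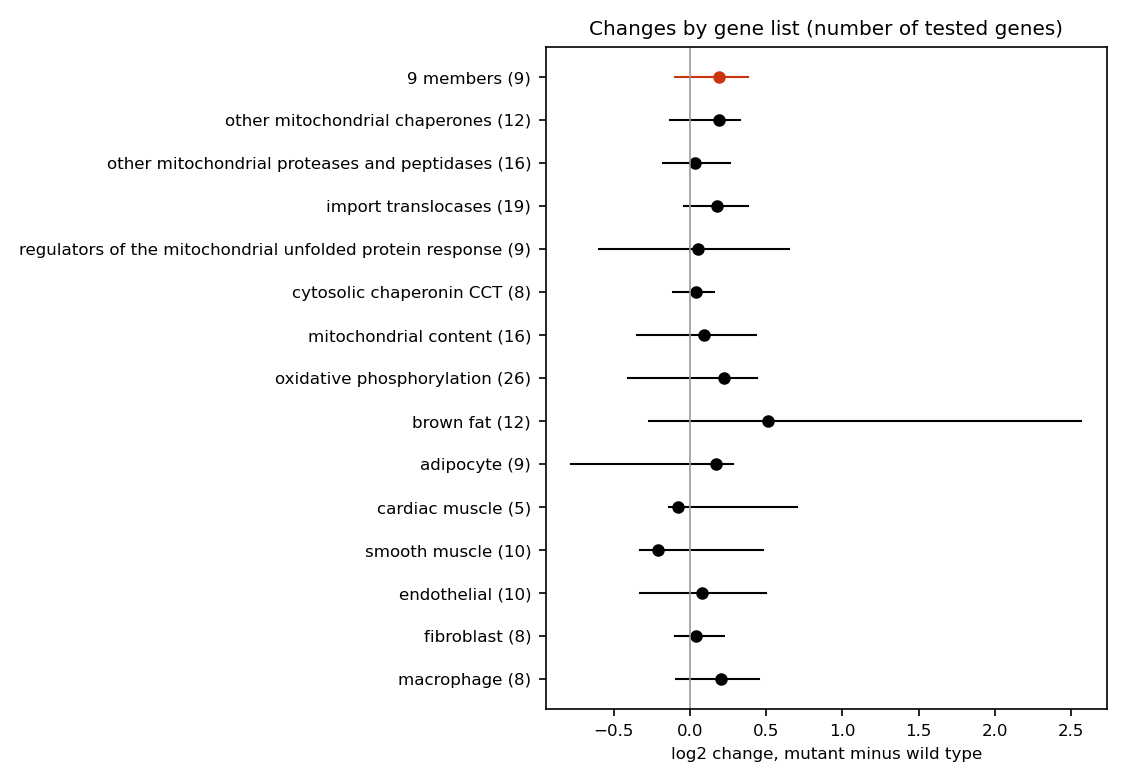
Log2 change, mutant minus wild type (horizontal axis), of each gene list but skeletal muscle, with the number of tested genes in brackets. Points are medians over genes and lines run from the lowest to the highest gene. The skeletal muscle list, which is not drawn, had a larger median (1.59, genes from 0.91 to 2.91). The 9 members (red, median 0.19) sit beside the other mitochondrial chaperones (0.19), the import translocases (0.18) and oxidative phosphorylation (0.22).

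Hspe1 and Hspd1 lie on chromosome 1, as does Npas2, with 73 protein-coding genes between Npas2 and Hspd1. The 5 nearest protein-coding genes on each side of the pair were examined, of which 8 were tested. Their median change was -0.07 and 2 had a value above 0, with 0 called by limma and 1 at an unadjusted p under 0.05. That 1 was Ankrd44 (-0.33 ± 0.07 SE, adjusted p = 0.0942). Coq10b, a protein of coenzyme Q function on the Hspd1 side, had a change of 0.19 ± 0.09 and Mob4, next to Hspe1, one of -0.13 ± 0.08. The other members lie on other chromosomes, Trap1 and Dnaja3 on 16, Clpp and Lonp1 on 17, Hspa9 on 18, Clpx on 9 and Grpel1 on 5.

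The genes whose pattern over the 10 arrays, with group means removed, was most like that of Hspe1 (mean of its 2 probe sets) were ranked among 10936 genes, with no test. Those probe sets were uncorrelated (r = 0.01), so their mean is not a single pattern. The closest were Nupl1 (r = 0.917), Dnajc16 (0.91), Tmem231 (0.909), Errfi1 (0.898), Rnf166 (0.896), 1700030K09Rik (0.895), Dnajb4 (0.894) and Dnaja1 (0.892). None of the 8 was called, with limma adjusted p values from 0.104 (Dnajc16) to 0.804 (Rnf166).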

How the data were processed

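Aortic RNA was measured on 10 arrays, 5 per group. The authors deposited log2 expression values, 1 per probe set and array, already summarised and normalised. GCRMA and MAS5 are both named, per the submitters' processing notes, and which of them gave the deposited values is not stated. Their log2 scale follows from their range (1.102 to 14.74, upper quartiles per array 5.4 to 5.55). Precision is limited by having 5 arrays a group. No scan date was used. Of 45101 probe sets 64 were controls. The platform annotation gave 34958 a single gene, 932 several and, controls left out, 9160 none.

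Tested were the 22340 probe sets that lay above the array's median on 5 or more arrays, mutant minus wild type, with limma 3.58.1 in R 4.3.3 (lmFit, eBayes, two-sided) and Benjamini-Hochberg adjustment over all of them, threshold 0.05. Errors are moderated SE or, over arrays, SD. The script was tested on simulated data. Genes in lists entered with their brightest tested probe set, and list means are means of those. Named were all probe sets of the members, up to 4 called genes of a list or, with none called, the 2 of largest change, and the 8 genes most like Hspe1. The genes, lists and tests were chosen with earlier results of these data known. Neighbouring genes and motifs were added after the files were seen. Promoters came from RefSeq (GRCm38.p6), and motifs were searched in 250 bases before each start. Listed genes not analysed here for want of a probe set under their name alone include Dnajc19, Phb, Immp2l, Tomm5, Tomm6, Hsf1, Kng2, Cfd, Plin1 and Acsl1. Alternatives were the filter, scaling, variance model, array weights, a one-way analysis, probe set suffixes, 3 list means as covariates and leaving out arrays.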

Additional observations from a re-analysis of the deposited data

Results flagged for a closer look

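Trap1 on probe set 1437379_x_at had an array far from the others of its group. Mutant F12 stood at 5.93 on the log2 scale while the other 4 mutant arrays lay between 6.02 and 6.03, a gap of 0.89 of the group's range where 0.71 is the limit for 5 samples. On the brighter Trap1 probe set 1416170_at the same array was the highest of all, at 7.96. This was 1 of 38 groups of 5 examined, and chance alone passes that limit about once in 20 groups.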

How the results depend on the processing

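The change of Hspe1 1450668_s_at was above 0 under all 21 alternatives, between 0.35 and 0.47, and passed the test in 7 of them, with adjusted p values from 0.0154 to 0.336. It was called without a filter on dim probe sets, with a filter at the 75th percentile, after quantile normalisation or median centring, with trend and robust variance, with array weights and in the one-way analysis. It was not called with any of the 3 covariates or when any 1 array was left out. The number of called member probe sets was 0 with each covariate, without _x_at and _s_at probe sets (which leaves Hspe1 with 1422579_at), and from 0 to 0 without each array in turn. Over all tested probe sets the count of 48 became 17 with no filter, 141 with the 75th percentile filter, 13 in the one-way analysis, 1, 7 and 10 with the brown fat, skeletal muscle and oxidative phosphorylation covariates, and 9 (without wild-type F16) to 43 (without wild-type F14_2) when each array was left out. Every array but F14_2 and wild-type F11 (34) moved that count by more than 1.5 times. Without both F12 and F13, added after seeing the data, 2 were called overall and 0 among the members. The median change of the 9 genes was 0.19, and reversed to -0.07 with the brown fat covariate, which does not overlap between the groups. It was 0.12 with the oxidative phosphorylation covariate and without F12 and F13. The cause was not tested. Of 369 values of single probe sets under the alternatives 17 moved by more than 1 SD, 14 of them with the brown fat covariate. No paired analysis was possible because the groups share no replicate identifier.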

Other observations

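Markers of other cell types in the aorta had no called member by limma or in the one-way analysis. Of 10 smooth muscle genes 9 had a lower mean in the mutant, 5 of them at an unadjusted p under 0.05, with a median change of -0.21. Of all tested probe sets 15.3% reached that unadjusted limma p in either direction, and 42.4% had a change above 0. Smtn, a cytoskeletal protein of contractile smooth muscle, had a change of -0.33 ± 0.1 (SE, adjusted p = 0.182) and Des, desmin, one of 0.48 ± 0.4. Of 9 adipocyte genes 8 had a higher mean, but Lep, the gene of leptin, had a change of -0.78 ± 0.22 (adjusted p = 0.155). Of 8 macrophage genes 7 had a higher mean, with Cd14 at 0.45 ± 0.13 and Lyz2 at 0.36 ± 0.12. Of 10 endothelial genes 7 were higher, with changes of 0.5 ± 0.14 for Emcn and -0.33 ± 0.12 for Pecam1. Fibroblast genes had a median change of 0.04 and cardiac muscle genes one of -0.08. Skeletal muscle genes had the largest median of the lists, 1.59, with 13 of 13 higher and 0 at an unadjusted p under 0.05. The mean over 13 skeletal muscle genes ran from 3.51 to 10.02 in wild type and from 3.53 to 11.1 in the mutant, and the second Clpx probe set, 1439342_at, went with it within groups (r = 0.71), as no other tested probe set of the members did beyond an r of 0.44.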
